A study of Homo sapiens with 36 samples.

Results

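The response of HT-29 cells to cobalt chloride was described over all genes of the mRNA count table, by setting 3 libraries of cells given CoCl2 against 3 control libraries. These 6 libraries were chosen by their labels from 36 in the series, and 15812 of the 60591 genes in the table had enough reads to be tested. HT-29 is an established line from a human colorectal adenocarcinoma and was grown in McCoy's 5A medium. CoCl2 was given at 300 µM for 24 h, and the control medium held 0.5 µl of dimethyl sulfoxide (DMSO) per ml. The series also holds HT-29 treated with 5 µM of an oxyquinoline derivative (OD) in DMSO, and the same treatments of Caco-2 cells that had been differentiated for 21 days. The OD libraries of HT-29 entered the same fit as the 6 libraries, and the Caco-2 mRNA libraries entered the comparison of the lines. The miRNA libraries of the series were not used here. The labels name DMSO for the control and for OD and water for the CoCl2 stock. The study's methods, in their account of Caco-2, put 0.5% DMSO into the CoCl2 medium as well as the control. The sources thus differ on the amount of DMSO too, and an effect of the solvent and one of CoCl2 cannot be told apart here. The study's methods call the replicates biological in their account of Caco-2 and the labels do not tell whether those of HT-29 were separate cultures, so the p-values measure the spread between these libraries. Each group is one cell line in culture, without stroma, blood vessels or immune cells.

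Cobalt occupies the iron site of the prolyl hydroxylases that use oxygen to mark hypoxia-inducible factor (HIF) for breakdown. HIF then persists at normal oxygen, pairs with ARNT and switches on genes for glycolysis, pH control, iron handling and blood vessel growth, which is why the salt is used as a chemical imitation of hypoxia. Cobalt is also a reactive metal: it binds thiols, consumes glutathione, and is known to engage NRF2, the factor of the antioxidant response, and MTF1, the factor that senses zinc and other metals.

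The 6 libraries held from 12925719 to 22332639 counts. Between 8.80% and 9.88% of control counts fell on the top 20 genes of a library, against 14.3% to 14.7% with CoCl2, and transcripts of mitochondrial DNA took from 6.41% to 7.63% and from 7.89% to 8.33%. Scaling factors from TMM, edgeR's trimmed mean of log ratios, which sets libraries to a common level for most genes, ran from 1.19 to 1.20 in controls and from 0.765 to 0.774 with CoCl2. All 10 epithelial markers on the list were tested, and KRT8, KRT18 and EPCAM were high in each library. They summed to between 6276 and 6360 CPM in the control libraries and between 8798 and 9361 CPM with CoCl2, and of them KRT19 (2.35) and KRT20 (1.23) were called higher and CDX2 (-1.46) and VIL1 (-2.62) lower. Most markers of other cell types were at or near 0: PTPRC, which defines leukocytes, had at most 2 counts in a library, and CDH5 and KDR of endothelium and COL1A2 of fibroblasts had 0 in all 6. Of 5 endothelial markers 2 were tested and both were lower, PECAM1 with 34, 28 and 35 counts in controls and 3, 7 and 6 with CoCl2 and TEK with 30, 26 and 42 and 0, 1 and 0, their list summing to between 2.89 and 4.13 CPM and between 0.224 and 0.553 CPM. Of 8 fibroblast markers 2 were tested and 1 was lower, and of 6 leukocyte markers 2 were tested and neither was called, of which LYZ, also a gene of secretory epithelium, was abundant in every library. Of 7 hepatocyte genes known from Caco-2, 3 were tested and none was called. In bulk libraries fewer cells of a kind and less RNA per cell cannot be told apart.

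CoCl2 moved a large part of the transcriptome. A gene was called when its false discovery rate (FDR) in the edgeR quasi-likelihood test was under 0.05 and its fold change was over 2 in either direction. By this rule 41.3% of the genes tested were called, with 17.4% higher and 23.9% lower, and all counts of gene lists below are to be read against these shares. Levels are in CPM, that is counts scaled to the TMM-adjusted size of each library, and changes are log2 fold changes of CoCl2 against control. Among the called genes 876 were over 4-fold higher and 1513 over 4-fold lower. The genes called higher took from 18.7% to 18.8% of all counts in the control libraries and from 40.7% to 41.0% with CoCl2, while the genes called lower fell from between 9.35% and 9.38% to between 1.96% and 2.03%. The replicate libraries lay close together, with a median standard error (SE) of a log2 fold change of 0.0927. Low genes weighed in the lower calls, of which 512 had no CoCl2 library above 3 counts. The split also rested on the scaling: when only the library size was used the all-gene median moved by -0.63, and 1295 genes were called higher and 6250 lower. All changes below are relative to TMM scaling.

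**Figure D1:**
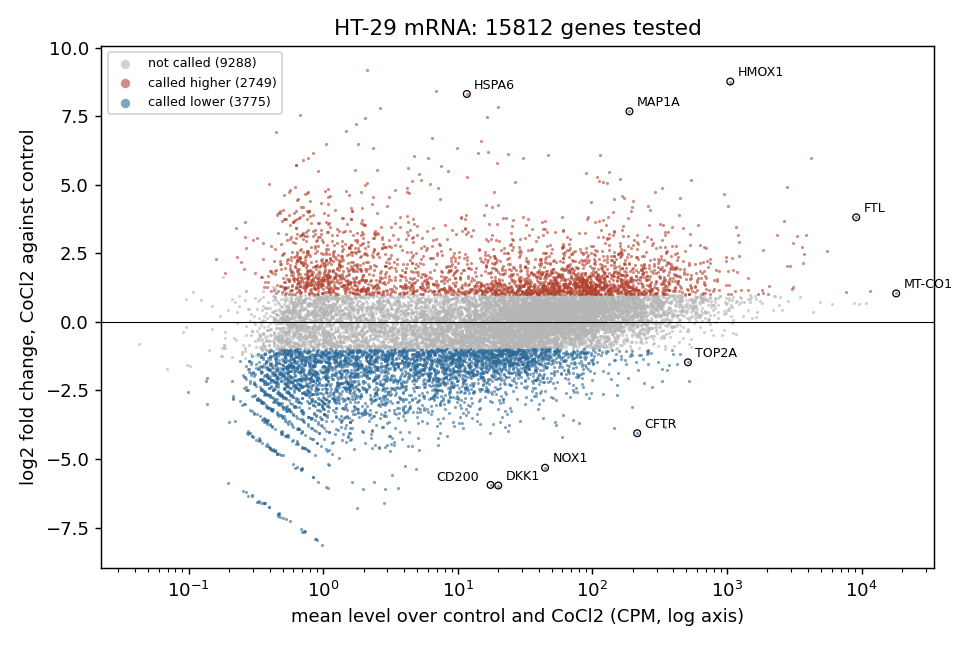
Mean level of each gene over the control and CoCl2 groups (CPM, log axis) against its log2 fold change, with genes called higher in red, called lower in blue and the others in grey. The higher genes reach the most abundant transcripts, such as FTL, whereas most lower genes are at moderate or low level, and the diagonal streaks at the left are genes with a few counts in one group.

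CoCl2 is given to stabilise HIF, and the HIF pathway was described first. Among its subunits and regulators 4 of 11 tested genes were called higher and 0 lower, with a median log2 fold change of 0.67. All 3 prolyl hydroxylases that mark HIF rose. EGLN3, at chr14:33924227-34462774 (-) on GRCh38, stood at 16.3, 17.7 and 16.8 CPM in the control libraries and at 270.1, 259 and 279.9 CPM with CoCl2 (log2 fold change 3.99, SE 0.0618, edgeR FDR 3.2e-27). EGLN1 went from 6.43 ± 0.508 CPM to 52.1 ± 3.03 CPM (SD, n = 3; log2 fold change 3.03), and EGLN2 from 17.5 ± 0.969 CPM to 47.8 ± 1.68 CPM (log2 fold change 1.45; 0.81 and not called with library size only). EPAS1, which encodes the HIF-2 alpha subunit, was under the limit for a call with 0.75, as were the coactivators CREBBP with 0.65 and EP300 with 0.46. ARNT, the partner of the alpha subunits, had -0.06, the asparaginyl hydroxylase HIF1AN -0.30 and VHL, the ligase that recognises the marked HIF, -0.44.

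Of 37 tested HIF target genes 33 were called higher and 0 lower, with a median of 3.05 against -0.03 over all genes tested. PFKFB4 and PFKFB3 make and break fructose 2,6-bisphosphate, the main allosteric activator of glycolysis. PFKFB4, at chr3:48517684-48562015 (-), was found at 6.84, 5.96 and 5.03 CPM in the control libraries and at 272, 249.9 and 258 CPM with CoCl2 (log2 fold change 5.48, SE 0.0857, edgeR FDR 3.79e-27). PFKFB3, at chr10:6144934-6254644 (+), was found at 28.2, 29.9 and 29.1 CPM in the control libraries and at 1105, 1006 and 1069 CPM with CoCl2 (log2 fold change 5.19, SE 0.05802, edgeR FDR 6.84e-30). ADM, at chr11:10305073-10307397 (+), encodes the vasodilator peptide adrenomedullin and was at 5.16, 3.72 and 3.64 CPM in the control libraries and at 174, 169 and 180.3 CPM with CoCl2 (log2 fold change 5.42, SE 0.0818, edgeR FDR 2.16e-27). The groups did not overlap in any of the 3, which held for 83.2% of all genes tested. VEGFA, the main growth factor of blood vessels, rose less, from 439 ± 31.5 CPM to 1599.7 ± 42.6 CPM (log2 fold change 1.86, SE 0.05099, edgeR FDR 5.04e-22). P4HA1 (3.43), PLOD2 (3.28) and P4HA2 (2.39), which hydroxylate collagen and, like the HIF hydroxylases, need iron, were also called higher.

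Genes of the list that were not called included BNIP3 with 0.51, LOX with 0.37 and BHLHE41 with -0.44, and 3 more (LOXL2, STC2 and TMEM45A) were too low to be tested. BNIP3, a mitophagy receptor, had a mean of 51.5 counts per library, and its value was -0.12 with library size only. It has processed copies elsewhere in the genome, and its level is uncertain. In the Caco-2 libraries of the same count table BNIP3 had 3.58 with CoCl2. The HT-29 less Caco-2 difference was called (-3.18, SE 0.213, edgeR FDR 2.09e-14), and line and culture state cannot be told apart in it. Its paralog BNIP3L was counted at a mean of 2019.5 and was called higher (3.29).

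Promoters are shown for 3 of the HIF targets with the largest changes that have a mean of at least 100 counts and hold the letters bound by HIF, because HIF acts through this short motif. Each is the RefSeq window on GRCh38.p14 from 250 bases before to 50 bases after the start that RefSeq gives for the gene, which for PFKFB4 lies inside the span printed for it from GENCODE, written 5′ to 3′ on the strand of the gene. The motif searched was ACGTG or GCGTG on both strands, and capitals mark each match. Each of the 3 windows held 1 match, and 48.4% of all 27305 RefSeq windows hold at least 1, so that a match is a description of the letters and not a binding site.
PFKFB4 chr3:48556754-48557053 (-): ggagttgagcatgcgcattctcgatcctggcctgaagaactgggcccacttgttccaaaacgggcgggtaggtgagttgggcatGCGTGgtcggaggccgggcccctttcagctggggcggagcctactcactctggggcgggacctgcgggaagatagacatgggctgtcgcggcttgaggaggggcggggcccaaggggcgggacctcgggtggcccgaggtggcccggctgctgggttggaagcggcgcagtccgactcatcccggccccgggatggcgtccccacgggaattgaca
ADM chr11:10304823-10305122 (+): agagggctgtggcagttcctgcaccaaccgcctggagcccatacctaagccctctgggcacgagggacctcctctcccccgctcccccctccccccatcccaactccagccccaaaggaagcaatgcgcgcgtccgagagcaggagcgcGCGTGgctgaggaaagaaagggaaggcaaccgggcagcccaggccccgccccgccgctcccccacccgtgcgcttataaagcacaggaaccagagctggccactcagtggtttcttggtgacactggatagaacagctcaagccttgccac
PFKFB3 chr10:6144671-6144970 (+): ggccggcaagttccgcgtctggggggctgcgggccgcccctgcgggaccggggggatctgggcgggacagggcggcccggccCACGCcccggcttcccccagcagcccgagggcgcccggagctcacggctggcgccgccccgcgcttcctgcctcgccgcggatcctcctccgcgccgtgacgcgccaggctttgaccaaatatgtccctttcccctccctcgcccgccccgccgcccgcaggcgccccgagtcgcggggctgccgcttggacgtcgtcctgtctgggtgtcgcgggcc

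Over the promoters that could be matched, 10718 of the tested genes, the motif was in 62.3% of windows of tested genes, in 60.6% of those of genes called higher and in 58.97% of those of genes called lower. In the HIF target list it was in 25 of 29 matched windows (86.2%). The stricter ACGTG was in 26.5% of tested genes, 28.3% of higher genes, 23.4% of lower genes and 16 of 29 HIF targets (55.2%). The core of the antioxidant response element, TGACNNNGC on both strands, was looked up after the data had been seen. It was in 15.3% of tested genes, 19.9% of higher genes and 12.03% of lower genes, and in 45 of 168 windows of genes over 8-fold higher (26.8%). These shares were not tested.

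Most glycolytic genes rose. Of 23 genes of glycolysis and lactate handling 17 were called higher and 0 lower (median 2.60). The hexokinase HK2, the first step of the pathway, stood at 35.4, 37.6 and 38.9 CPM in the control libraries and at 869.7, 865 and 838 CPM with CoCl2 (log2 fold change 4.52, SE 0.06102, edgeR FDR 3.03e-28). The neuronal enolase ENO2 went from 21.7 ± 1.17 CPM to 637 ± 17.7 CPM (log2 fold change 4.87). LDHA, which makes lactate, went from 770.4 ± 24.4 CPM to 6962 ± 206 CPM (log2 fold change 3.18) and was among the 10 genes that gained the most CPM. LDHB, the isoform that favours the reverse reaction, had -0.10, and the lactate importer SLC16A1 had -0.76 where the exporter SLC16A3 had 2.99. ALDOA was called higher (3.70) but had a mean of 356 counts, and another annotated gene overlaps it on the same strand, so its level is uncertain.

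In the glycogen list 3 of 10 genes were higher and 1 lower (median 0.45): GBE1, the branching enzyme, went from 7.86 ± 0.684 CPM to 111 ± 3.52 CPM (log2 fold change 3.82), with PGM1 at 1.93 and the synthase GYS1 at 1.09. The citric acid cycle had 1 of 22 genes higher and none lower (median 0.22). Nuclear genes of the respiratory chain had 5 of 72 higher and 0 lower (median 0.30), among them NDUFA4 with 1.47. Of the 13 mitochondrial DNA transcripts 2 were higher, MT-CO1 with 1.04 and MT-ND1 with 1.03 (median 0.69), and both calls were lost with library size only or without control replicate 3. Genes of the mitochondrial ribosome (50 tested, 3 higher and 6 lower, median 0.06) and of the aminoacyl-tRNA synthetases (20 tested, 1 higher and 0 lower, median 0.10) lay around 0. The signs of the medians of all these lists except the mitochondrial DNA transcripts turned with library size only, so no direction is given for them as groups.

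**Figure D2:**
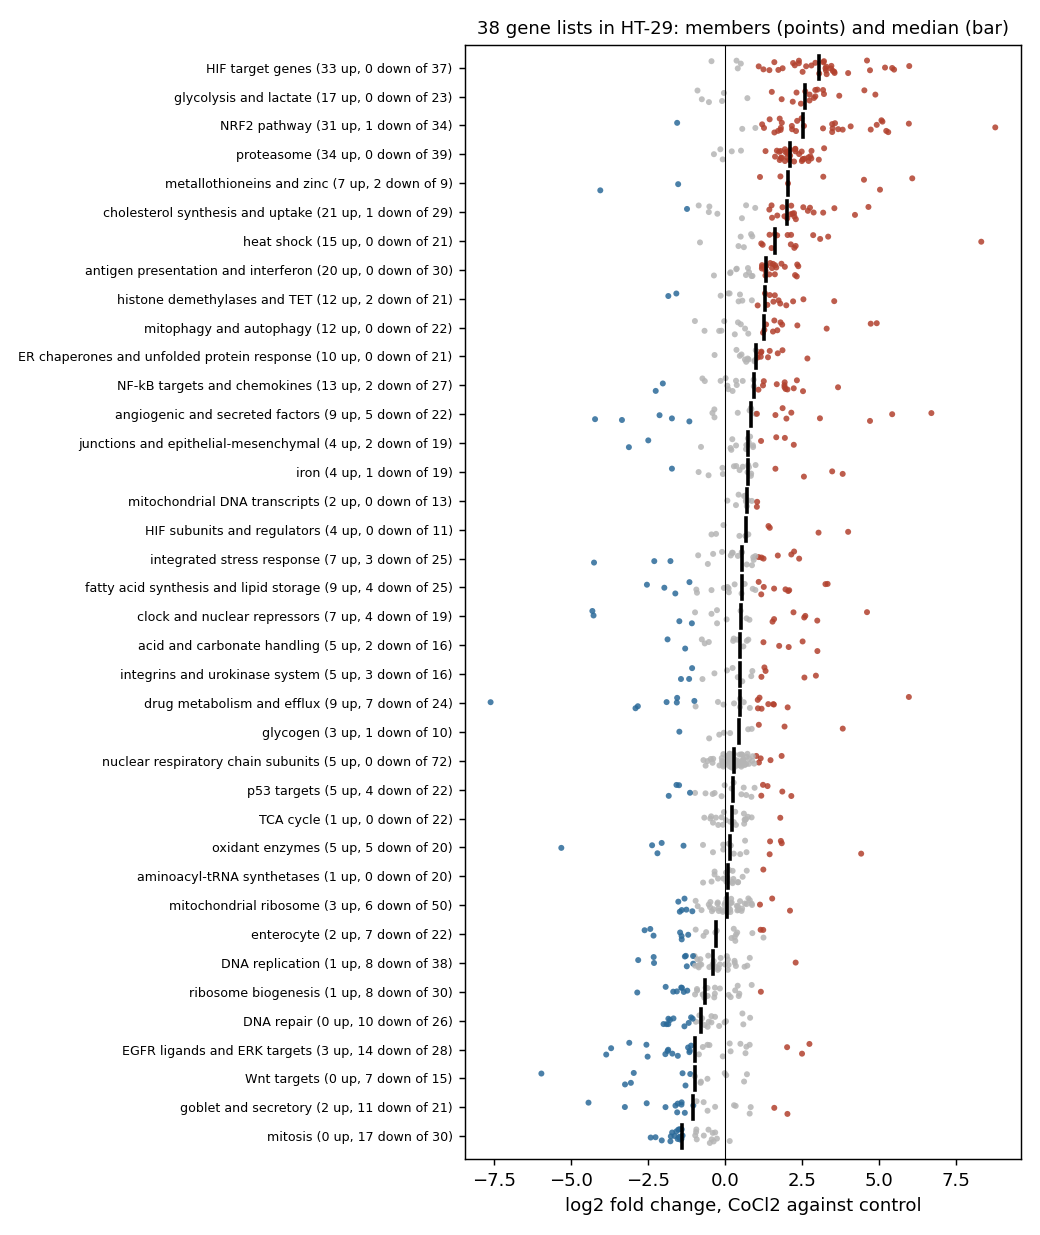
Log2 fold change (x axis) of the tested members of 38 gene lists (y axis, ordered by median), each point a gene, red if called higher, blue if called lower and grey otherwise, with a black bar at the median. The HIF targets, glycolysis, the NRF2 pathway and the proteasome lie highest, and the mitosis genes lie lowest with a median of -1.41.

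Genes of the NRF2 pathway, which make and recycle glutathione and thioredoxin and detoxify reactive molecules, were called higher in 31 of 34 cases and lower in 1 (median 2.52). Together they held 5596, 5719.5 and 5773 CPM in the control libraries and 44489.7, 44062 and 44516 CPM with CoCl2. HMOX1, at chr22:35380361-35394214 (+), encodes the heme oxygenase that frees iron from heme. It stood at 5.62, 4.59 and 4.54 CPM in the control libraries and at 2199, 2076 and 2065 CPM with CoCl2, the largest fold change among genes with a mean of at least 100 counts (log2 fold change 8.77, SE 0.0703, edgeR FDR 4.01e-33). FTL and FTH1 encode the chains of ferritin, which stores iron. FTL, at chr19:48965309-48966879 (+), was at 1226, 1246 and 1168 CPM in the control libraries and at 16739, 17089 and 17332 CPM with CoCl2 (log2 fold change 3.81, SE 0.0436, edgeR FDR 8.91e-30), and of all genes it gained the most CPM. FTH1 went from 195 ± 39.05 CPM to 2151 ± 171 CPM (log2 fold change 3.47), and since both have many processed copies in the genome their exact levels are uncertain. The thioredoxin reductase TXNRD1 was found at 337, 372 and 450.0 CPM in the control libraries and at 4999, 4909.7 and 4853 CPM with CoCl2 (log2 fold change 3.67, SE 0.07401, edgeR FDR 7.55e-25).

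Both subunits of the enzyme that limits glutathione synthesis rose, GCLM from 29.8 ± 1.22 CPM to 503 ± 23.7 CPM (log2 fold change 4.07) and GCLC from 64.9 ± 1.97 CPM to 721 ± 18.8 CPM (log2 fold change 3.47). The conjugate exporter ABCC2 had the second largest change of the list with 5.96, from 0.994 ± 0.675 CPM to 60.3 ± 1.94 CPM, while the related exporter ABCC3 was the one member called lower (-1.56). NQO1, a quinone reductase that is often used as a readout of NRF2, was already at 318 ± 13.1 CPM in controls and reached 962 ± 36.7 CPM (log2 fold change 1.60; 0.96 and not called with library size only). The mRNA of NRF2 itself, NFE2L2, was not called (0.55), and its repressor KEAP1 was higher (1.80). The closely similar AKR1C1 (5.29), AKR1C2 (5.10) and AKR1C3 (2.17) may share reads, so that their separate values are uncertain.

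Metallothioneins are small cysteine-rich proteins that bind zinc, copper and cadmium. In the list of metallothioneins and zinc transporters 7 of 9 tested genes were higher and 2 lower (median 2.04). MT1X, at chr16:56682470-56684196 (+), stood at 1.29, 1.31 and 1.43 CPM in the control libraries and at 90.96, 96.5 and 87.5 CPM with CoCl2 (log2 fold change 6.07, SE 0.1198, edgeR FDR 4.88e-25). MT2A was at 13.2, 13.6 and 16.1 CPM in the control libraries and at 339.8, 347 and 299 CPM with CoCl2 (log2 fold change 4.50, SE 0.07104, edgeR FDR 4.1e-27), and MT1E went from 42.9 ± 3.57 CPM to 389 ± 34.8 CPM (log2 fold change 3.18). These genes are near-identical copies in one cluster on chromosome 16, and the split of reads between them is uncertain. The zinc exporter SLC30A1, a classical target of MTF1, rose from 44.3 ± 2.06 CPM to 153 ± 16.6 CPM (log2 fold change 1.79). The zinc importer SLC39A10 was lower (-1.53), as was SLC30A2, which had 25, 37 and 45 counts in the control libraries and 2, 2 and 0 with CoCl2. MTF1 itself was at 1.13 and lost its call with library size only (0.50) and with limma on the deposited log2 values (0.93).

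The MT1X promoter is shown for the metal response element, through which MTF1 acts. The core searched was TGCGCNC or TGCACNC on both strands, in the same kind of window as above. The window held 4 matches, in capitals, and 29.3% of all RefSeq windows and 38.2% of those of tested genes hold at least 1. Of the 6 matched windows of this list 4 held the core, and all 6 held ACGTG or GCGTG.
MT1X chr16:56682220-56682519 (+): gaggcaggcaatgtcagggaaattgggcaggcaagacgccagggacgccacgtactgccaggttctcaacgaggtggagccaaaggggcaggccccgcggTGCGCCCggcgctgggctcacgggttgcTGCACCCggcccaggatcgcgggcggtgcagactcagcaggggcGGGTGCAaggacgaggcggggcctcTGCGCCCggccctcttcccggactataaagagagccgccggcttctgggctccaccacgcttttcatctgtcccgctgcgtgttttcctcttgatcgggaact

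In the iron list 4 of 19 genes were higher and 1 lower (median 0.73). Beside the ferritins these were the biliverdin reductase BLVRB (2.56), which works downstream of heme oxygenase, and the iron importer SLC11A2 (1.63). The transferrin receptor TFRC, whose mRNA is stabilised when iron is scarce, passed the FDR but not the fold limit, going from 466 ± 19.7 CPM to 831 ± 33.03 CPM (log2 fold change 0.83), and the iron exporter SLC40A1 likewise (log2 fold change 0.73). The endosomal reductase STEAP3 was lower (-1.73, mean 53.2 counts).

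The proteasome is the complex that degrades ubiquitin-tagged proteins, and nearly all of its genes rose. Of 39 tested genes 34 were called higher and 0 lower, with a median of 2.09 and a range of -0.37 to 3.21. Their summed level was 3758, 3796 and 4028 CPM in the control libraries and 17470.2, 17944 and 17537 CPM with CoCl2. The ATPase PSMC4, at chr19:39971165-39981764 (+), was at 103, 105 and 105 CPM in the control libraries and at 964, 984 and 953 CPM with CoCl2 (log2 fold change 3.21, SE 0.0492, edgeR FDR 2.61e-27). The lid subunit PSMD11 went from 159 ± 5.09 CPM to 1106 ± 25.4 CPM (log2 fold change 2.80) and the core subunit PSMB2 from 134 ± 5.56 CPM to 934 ± 17.8 CPM (log2 fold change 2.80). Base, lid and both rings of the core were represented, together with the assembly factor POMP (1.96) and the activator PSME4 (2.58). The 5 genes that were not called were PSMB8 with -0.37 and PSMB10 with 0.51, interferon-inducible subunits of the immunoproteasome, and PSME1 with 0.21, PSME2 with -0.16 and PSME3 with -0.08, which form the 11S caps. PSMB9, the third immunoproteasome subunit, was called at 1.31 with a mean of 36.2 counts. PSMA6, at 3.04, shares its strand with an overlapping gene and is uncertain. NFE2L1, which encodes the factor that is known to raise proteasome genes when the proteasome is blocked, stood at 0.99, just under the limit.

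Most heat shock genes rose, and so did UBB, which encodes polyubiquitin, from 74.9 ± 7.19 CPM to 234 ± 4.34 CPM (log2 fold change 1.64). Of 21 heat shock genes 15 were higher and 0 lower (median 1.61). HSPA6, an inducible HSP70 that most cells lack until stressed, had 1, 1 and 2 counts in the control libraries and 304, 354 and 276 with CoCl2, and was at least 149-fold higher against a floor of 3 counts per library. HSPA1A was at 24.3, 19.7 and 19.3 CPM in the control libraries and at 212, 219 and 202 CPM with CoCl2 (log2 fold change 3.34, SE 0.0679, edgeR FDR 8.61e-25), and its near-identical neighbour HSPA1B had 3.08, so that reads may be split between them. The cytosolic co-chaperones HSPH1 (2.29) and BAG3 (2.24), the constitutive HSPA8 (2.14) and HSP90AA1 (1.61) were called higher, whereas the mitochondrial chaperones HSPD1 (0.43, -0.20 with library size only) and HSPE1 (0.84) were not.

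In the autophagy list 12 of 22 genes were higher and 0 lower (median 1.25). SQSTM1, the receptor p62 that links ubiquitin-tagged cargo to autophagosomes and is also an NRF2 target, was at 171, 181 and 181 CPM in the control libraries and at 5344, 5395 and 5404 CPM with CoCl2 (log2 fold change 4.92, SE 0.0484, edgeR FDR 3.91e-31). GABARAPL1, a protein of the autophagosome membrane, went from 21.4 ± 1.71 CPM to 568 ± 17.3 CPM (log2 fold change 4.72), and the mitophagy kinase PINK1 had 2.34. For the endoplasmic reticulum 10 of 21 genes were higher and 0 lower (median 0.99, with 3 called by library size only), led by DNAJB9 (2.67) and the chaperone HSPA5 (1.86), while XBP1 had -0.34. The integrated stress response was mixed, with 7 of 25 genes higher and 3 lower (median 0.54, -0.09 with library size only). DDIT3, a transcription factor of that response, went from 74.1 ± 9.74 CPM to 394 ± 2.996 CPM (log2 fold change 2.40), whereas ATF4 had 0.91, the serine synthesis enzyme PSPH was lower (-2.30) and so was the glutathione-degrading CHAC1 (-1.78).

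**Figure D3:**
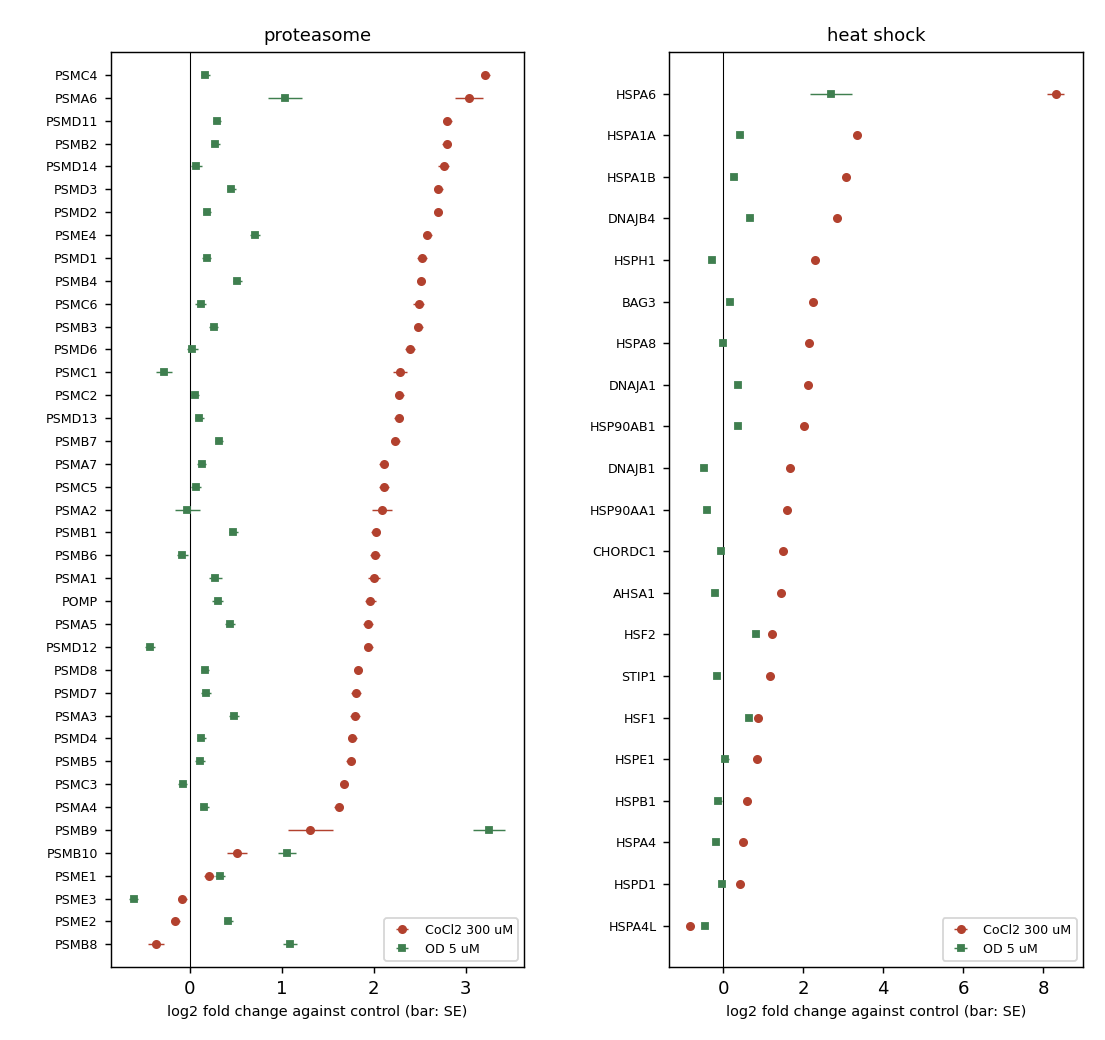
Log2 fold change against control (x axis, bars SE) for each tested gene of the proteasome and heat shock lists under CoCl2 (red circles) and under OD (green squares), which share the 3 control libraries. With CoCl2, 34 of 39 proteasome genes and 15 of 21 heat shock genes were called higher, and the OD medians were 0.18 and 0.01.

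Most genes of cholesterol synthesis and uptake rose, with 21 of 29 genes higher and 1 lower (median 2.01). INSIG1, the sterol sensor that retains the SREBP factors in the endoplasmic reticulum and is itself their target, stood at 81.1, 72.1 and 65.6 CPM in the control libraries and at 1743, 1951 and 1772 CPM with CoCl2 (log2 fold change 4.65, SE 0.0714, edgeR FDR 2.63e-27). HMGCS1, an early enzyme of the pathway, was at 108, 101 and 102 CPM in the control libraries and at 1839.8, 2035 and 1881 CPM with CoCl2 (log2 fold change 4.21, SE 0.0665, edgeR FDR 4.1e-27). The efflux transporters ABCA1 and ABCG1, targets of the sterol-activated LXR receptors, were not called (-0.51 and -0.53), and TM7SF2, a sterol reductase, was the one gene lower (-1.24). Fatty acid and lipid storage genes were divided, with 9 of 25 higher and 4 lower (median 0.53, -0.10 with library size only). The synthase FASN (2.08) and the desaturase SCD (2.05) were higher, and the triglyceride enzyme DGAT2 (-2.54) and the lipase inhibitor G0S2 (-1.98) were lower.

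Genes of the late cell cycle were lower while most replication genes were not called. In the mitosis list 17 of 30 genes were lower and 0 higher (median -1.41). CENPA, the histone that marks the centromere, stood at 19.04, 20.1 and 18.8 CPM in the control libraries and at 3.44, 3.25 and 4.198 CPM with CoCl2 (log2 fold change -2.42, SE 0.115, edgeR FDR 9.68e-17). TOP2A, the topoisomerase of dividing cells, went from 755 ± 12.4 CPM to 272 ± 19.1 CPM (log2 fold change -1.47), the kinesin CENPE had -2.06, the phosphatase CDC25C -2.26 and the cyclin CCNB2 -1.78. The proliferation marker MKI67 went from 703 ± 40.4 CPM to 371 ± 25.1 CPM but missed the fold limit (log2 fold change -0.92), which it passed with library size only (-1.56). Of 38 replication genes 8 were lower and 1 higher (median -0.39). POLE2 (-2.31) and GINS4 (-2.82, mean 47.00 counts), parts of the replication fork, were lower. ORC1, the largest subunit of the origin recognition complex, went the other way, at 12.3, 13.4 and 12.6 CPM in the control libraries and at 61.4, 60.2 and 65.8 CPM with CoCl2 (log2 fold change 2.29, SE 0.0663, edgeR FDR 1.76e-21). PCNA, the sliding clamp, had -0.17.

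DNA repair genes had 10 of 26 lower and 0 higher (median -0.77). BRCA1, at chr17:43044295-43170245 (-), which acts in homologous recombination, was at 116, 126 and 133 CPM in the control libraries and at 30.3, 30.7 and 32.8 CPM with CoCl2 (log2 fold change -2.001, SE 0.0591, edgeR FDR 2.58e-21). The recombination genes RAD51C (-1.84) and XRCC2 (-1.85) and the helicase BLM (-1.79) were lower, whereas XRCC6 (0.81) and XRCC5 (-0.33), which form the Ku complex of end joining, were not called. Ribosome biogenesis had 8 of 30 genes lower and 1 higher (median -0.64). UBTF, at chr17:44205033-44221626 (-), the factor that opens ribosomal DNA for RNA polymerase I, was at 93.5, 102 and 87.1 CPM in the control libraries and at 13.3, 12.3 and 13.4 CPM with CoCl2 (log2 fold change -2.85, SE 0.0715, edgeR FDR 7.34e-23), and the polymerase subunit POLR1B had -1.93. HT-29 carries a mutant p53, and the p53 target list was divided, with 5 of 22 higher and 4 lower (median 0.24, -0.39 with library size only). The cell cycle inhibitor CDKN1A went from 81.8 ± 15.6 CPM to 298 ± 7.89 CPM (log2 fold change 1.85).

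Among genes of growth factor signalling through EGFR and ERK 14 of 28 were lower and 3 higher (median -0.98). Among the ligands, EREG stood at 225, 273 and 318 CPM in the control libraries and at 17.6, 19.4 and 19.2 CPM with CoCl2 (log2 fold change -3.86, SE 0.0997, edgeR FDR 1.4e-22), and AREG was at 282, 369 and 403 CPM in the control libraries and at 38.2, 41.7 and 42.2 CPM with CoCl2 (log2 fold change -3.11, SE 0.09400, edgeR FDR 4.15e-21). HBEGF (-1.85) and BTC (-1.15) were lower too, and TGFA was not called (0.49). The receptor EGFR went from 141 ± 3.31 CPM to 43.1 ± 2.32 CPM (log2 fold change -1.72) and ERBB2 had -1.20. DUSP6, the ERK phosphatase whose mRNA follows ERK activity, was at 114, 132 and 131 CPM in the control libraries and at 21.96, 21.4 and 20.8 CPM with CoCl2 (log2 fold change -2.56, SE 0.0721, edgeR FDR 9.49e-22), and the sprouty gene SPRY2 had -1.54. MYC (-1.87) and the cyclin CCND1 (-2.52), drivers of entry into the cell cycle, were lower. The 3 genes that were higher were the AP-1 subunits FOSL1 (2.73) and JUN (2.01) and the phosphatase DUSP5 (2.49). Wnt targets had 7 of 15 genes lower and 0 higher (median -0.98), among them the stem cell receptor LGR5 (-3.06, mean 27.7 counts) and NOTUM (28, 25 and 52 counts in the control libraries, 3, 1 and 3 with CoCl2), while AXIN2, the most general Wnt readout, was not called (0.71).

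**Figure D4:**
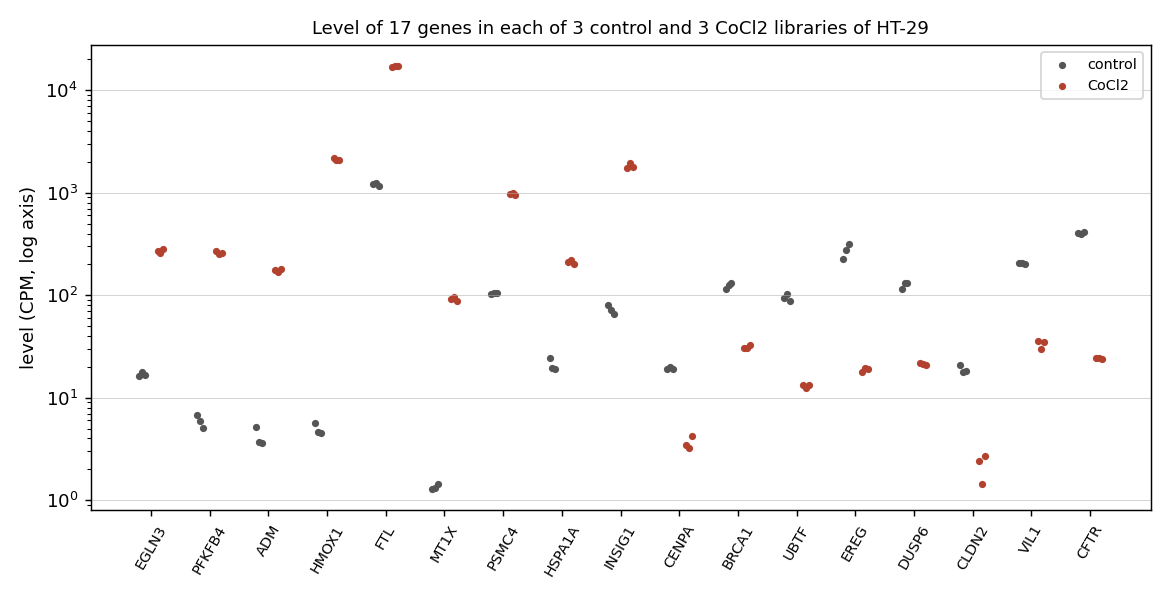
Level (CPM, log axis) of 17 genes in each of the 3 control libraries (grey) and the 3 CoCl2 libraries (red) of HT-29. The CoCl2 libraries are higher from EGLN3 to INSIG1 and lower from CENPA to CFTR.

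HT-29 keeps features of mucus-secreting goblet cells and of absorptive enterocytes, and the lists of both are given here. Of 21 goblet and secretory genes 11 were lower and 2 higher (median -1.03), while their summed level was higher, at 1560 to 1575 CPM in the control libraries and 2199 to 2291 CPM with CoCl2. The secreted mucin MUC5AC went from 132 ± 13.01 CPM to 22.4 ± 3.19 CPM (log2 fold change -2.55), REG4 had -1.94, the master factor SPDEF -1.31 and ATOH1 -3.26 (mean 39.00 counts). MUC2, the main mucin of the colon, was at the limit with -1.03 and lost its call when control replicate 1 (-0.97), CoCl2 replicate 2 (-0.94) or CoCl2 replicate 3 (-0.97) was left out. MUC2 also lost its call with limma on the deposited log2 values (-0.63) and in a test against the fold limit. The membrane mucins MUC13 (2.02) and MUC17 (1.59) were higher. Of 22 enterocyte genes 7 were lower and 2 higher (median -0.30), where 23.9% of all genes were called lower, and their summed level was 1323 to 1350 CPM in the control libraries and 1637 to 1691 CPM with CoCl2. VIL1, villin of the brush border, was found at 208, 206 and 202 CPM in the control libraries and at 35.4, 30.1 and 35.1 CPM with CoCl2 (log2 fold change -2.62, SE 0.0599, edgeR FDR 1.06e-23). The homeobox factors of intestinal identity, CDX2 (-1.46) and CDX1 (-2.43, mean 23.2 counts), were lower, HNF4A was not called (-0.62) and the keratin KRT20 was higher (1.23).

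In the list of junctions and epithelial-mesenchymal genes 4 of 19 were higher and 2 lower (median 0.73), and the claudins moved apart. CLDN2, which forms cation and water pores, stood at 20.7, 17.8 and 18.2 CPM in the control libraries and at 2.39, 1.45 and 2.72 CPM with CoCl2 (log2 fold change -3.13, SE 0.1502, edgeR FDR 1.24e-16), and CLDN1 went from 123 ± 8.12 CPM to 21.7 ± 2.76 CPM (log2 fold change -2.50). CLDN4, a sealing claudin, was at 239, 244 and 266 CPM in the control libraries and at 1280.2, 1129 and 1099.7 CPM with CoCl2 (log2 fold change 2.23, SE 0.0543, edgeR FDR 4.3e-23). E-cadherin, CDH1, was not called (0.74), and VIM, CDH2, SNAI2 and TWIST1 had too few counts to be tested. Transport genes were among the largest losses in absolute level. CFTR, the chloride channel of the crypt, at chr7:117287120-117715971 (+), was at 407, 398 and 415 CPM in the control libraries and at 24.6, 24.6 and 23.9 CPM with CoCl2 (log2 fold change -4.06, SE 0.0638, edgeR FDR 4.03e-27). SLC12A2, the basolateral chloride loader that feeds it, went from 857 ± 22.8 CPM to 190.3 ± 3.57 CPM (log2 fold change -2.17). ANXA13 (-3.84) and TM4SF4 (-1.74), membrane proteins of the gut epithelium, were also among the 10 genes that lost the most CPM.

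Of 27 NF-kB targets and chemokines 13 were higher and 2 lower (median 0.93). The neutrophil chemokine CXCL8 stood at 4.84, 6.12 and 7.81 CPM in the control libraries and at 79.1, 91.00 and 75.97 CPM with CoCl2 (log2 fold change 3.66, SE 0.144, edgeR FDR 1.49e-18), the NF-kB subunit RELB had 2.53 and the inhibitor NFKBIA 1.92, whereas CXCL1 (-0.66), CXCL2 (0.92) and CCL20 (0.57) were not called. In the list of antigen presentation and interferon 20 of 30 genes were higher and 0 lower (median 1.32), or 7 called with library size only. HLA-C went from 68.3 ± 5.12 CPM to 354 ± 10.7 CPM (log2 fold change 2.37), HLA-B had 2.27 and OAS1, an interferon-induced sensor of RNA, 1.94. B2M, the light chain of these HLA molecules, was called at 1.20 but not with library size only (0.56), and HLA genes differ in sequence between people, so that a reference may count them unevenly.

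Most histone demethylases are iron-dependent oxygenases like the HIF hydroxylases, KDM1A being a flavin-dependent enzyme, and 12 of 21 genes of this list were higher and 2 lower (median 1.29). KDM3A, which removes methyl groups from a lysine of histone H3, was at 95.5, 96.1 and 99.5 CPM in the control libraries and at 1095, 1149 and 1143 CPM with CoCl2 (log2 fold change 3.54, SE 0.0539, edgeR FDR 2.35e-27), and JMJD6 (2.54), KDM2A (1.98), KDM6A (1.79) and KDM5C (1.73) were higher. The nucleolar oxygenases RIOX1 (-1.85, mean 79.3 counts) and RIOX2 (-1.59) were lower.

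The remaining lists were divided. Clock genes had 7 of 19 higher and 4 lower (median 0.50), with the repressors CRY2 (2.60) and PER1 (2.22) and the activator RORA (2.99) higher and PER3 (-1.49, and -0.81 without a call by limma on the deposited log2 values) lower. Drug metabolism had 9 of 24 higher and 7 lower (median 0.48, 0.38 where genes at the floor take their bound). The cytochrome CYP1B1 was lower (-2.83), and UGT2B15 had 31, 25 and 28 counts in the control libraries and 0, 0 and 0 with CoCl2, at least 6.52-fold lower. Enzymes that make or remove oxidants had 5 of 20 higher and 5 lower (median 0.15): the secreted peroxidase GPX3 went from 18.01 ± 0.484 CPM to 385 ± 17.5 CPM (log2 fold change 4.41), SOD1 had 1.84 and SOD2 1.46, while the oxidase NOX1 (-5.32) and its activator NOXA1 (-2.20) were lower.

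Among secreted factors 9 of 22 were higher and 5 lower (median 0.84). Osteopontin, SPP1, had 1, 3 and 3 counts in the control libraries and 167, 187 and 155 with CoCl2, at least 81.3-fold higher, and the growth factor binder IGFBP6 had 3.08, whereas the vasoconstrictor EDN1 (-3.35) and TGFB2 (-4.22) were lower. The integrin and urokinase list had 5 of 16 higher and 3 lower (median 0.48), with the serpin SERPINB5 at 2.57 and the collagen-binding integrin chains ITGA1 at -1.17 and ITGA2 at -1.07. The fibronectin receptor chain ITGA5 and the transcription factor NFATC1 had at most 2 and 3 counts in each of the 6 libraries and were not tested. Acid and carbonate handling had 5 of 16 higher and 2 lower (median 0.49), with the proton pump subunits ATP6V0D1 (2.06) and ATP6V1A (1.75) higher and the bicarbonate carrier SLC4A4 (-1.30) lower. The medians of the lists in this and the preceding paragraph, other than that of the secreted factors, changed sign with library size only.

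Long noncoding RNAs (lncRNAs) were counted apart from protein-coding genes. Of the tested genes 13908 (88.0%) were matched to the GENCODE annotation. The 1904 without a match were not sorted by type, and 711 of them were called lower and 415 higher (median -0.36). Among 861 lncRNAs 431 were called lower and 112 higher (median -1.01), against 2534 and 2029 of 12422 protein-coding genes (median 0.01). The lncRNAs had a median of 32.5 counts against 476, and the part of depth in this difference was not tested. Among processed pseudogenes there were 127 of 368 higher and 30 lower, which share sequence with their parent genes. UCA1, a lncRNA known from bladder cancer, stood at 5.87, 6.62 and 6.04 CPM in the control libraries and at 223, 213 and 215 CPM with CoCl2 (log2 fold change 5.13, SE 0.0806, edgeR FDR 4.03e-27). IGFL2-AS1, at chr19:46189029-46203160 (-), was at 4.13, 2.57 and 3.34 CPM in the control libraries and at 239.9, 212 and 219.9 CPM with CoCl2 (log2 fold change 6.07, SE 0.0979, edgeR FDR 6.47e-27), and IGFL1P1 (6.59), which overlaps it on the other strand, may share reads with it, since the kit was stranded but the strand setting of the counting is not given. Among the lower lncRNAs ELFN1-AS1 had 92, 110 and 135 counts in the control libraries and 1, 0 and 2 with CoCl2, at least 25.1-fold lower, and SSTR5-AS1 was at least 28.4-fold lower. NEAT1, the scaffold of nuclear paraspeckles, was one of the 10 largest losses in CPM, from 629 ± 45.7 CPM to 216 ± 10.7 CPM (log2 fold change -1.54).

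Genes outside the lists were among those with the largest changes at a mean of at least 100 counts. Among the 10 highest, the microtubule-associated protein MAP1A, at chr15:43510958-43531620 (+), was found at 2.07, 2.24 and 1.39 CPM in the control libraries and at 377, 373 and 377 CPM with CoCl2 (log2 fold change 7.68, SE 0.0891, edgeR FDR 1.06e-29). The collagenase MMP13 had 4, 0 and 7 counts in the control libraries and 375, 552 and 403 with CoCl2 (log2 fold change 7.45, SE 0.235, edgeR FDR 1.03e-20), the diacylglycerol kinase DGKG had 6.35 and the fatty acid hydroxylase CYP4F11 6.13. The noncoding NMRAL2P had 6.17, and LINC01564 had 6.18 but lies across GCLC on the opposite strand. Among the 10 lowest, CD200, an immune inhibitory ligand, was at 37.8, 33.7 and 32.03 CPM in the control libraries and at 0.523, 0.346 and 0.823 CPM with CoCl2 (log2 fold change -5.95, SE 0.166, edgeR FDR 7.66e-22). The thrombin receptor F2R was at 108, 108 and 123 CPM in the control libraries and at 6.27, 6.29 and 5.76 CPM with CoCl2 (log2 fold change -4.20, SE 0.0838, edgeR FDR 5.99e-25). TGFB2 (-4.22), the alcohol dehydrogenase ADH6 (-4.48), IGSF10 (-4.16) and ERN2 (-4.06), the stress sensor of goblet cells, were the others with a known name beside DKK1 (-5.97), NOX1 (-5.32) and CFTR (-4.06).

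CoCl2 was also set against OD in the same line, which asks which of the changes the 2 agents differ in at the doses used. The direct test between the CoCl2 and OD libraries called 29.9% of genes, 1702 higher and 3032 lower with CoCl2, a split of 783 higher and 5279 lower with library size only. In the proteasome list 35 of 39 genes differed, and its median against control was 2.09 with CoCl2 and 0.18 with OD. PSMC4 had 3.21 and 0.17 against control (CoCl2 less OD 3.05, SE 0.0488, edgeR FDR 3.85e-26). In the heat shock list 14 of 21 genes differed (medians 1.61 and 0.01). All 9 tested metallothionein and zinc genes differed, and MT2A had 4.50 with CoCl2 and -1.10 with OD (CoCl2 less OD 5.60, SE 0.0796, edgeR FDR 3.16e-27). Of 37 HIF targets 29 differed (medians 3.05 and 0.81). PFKFB3 had 5.19 and 0.45 (CoCl2 less OD 4.74, SE 0.0563, edgeR FDR 4.89e-29).

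In other lists fewer genes passed the FDR and the fold limit between the 2 agents under TMM scaling. With library size only the all-gene median of CoCl2 less OD went from -0.066 to -0.56. The list counts were not redone with that scaling, so a small count does not show that the agents were alike. In cholesterol synthesis 6 of 29 genes differed (medians 2.01 and 1.59), in the endoplasmic reticulum list 3 of 21 (medians 0.99 and 1.02) and in mitosis 3 of 30 (medians -1.41 and -0.68). LUCAT1, a lncRNA known to follow NRF2, had 4.26 and 4.06 (CoCl2 less OD 0.20, SE 0.07702, edgeR FDR 0.0213). The immunoproteasome subunit PSMB8 was called with OD only and had -0.37 with CoCl2 and 1.09 with OD (CoCl2 less OD -1.46, SE 0.08104, edgeR FDR 5.6e-15). Both comparisons against control use the same 3 control libraries, and 1 dose of each agent was given, so that agent and dose cannot be told apart.

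The response of HT-29 was then compared with that of Caco-2, whose cells had been differentiated for 21 days, by testing the HT-29 change less the Caco-2 change over the libraries of both lines. The test called 21.6% of 17921 genes, 1396 with a more positive change in HT-29 and 2479 with a more negative one. The split was 1005 and 3319 with library size only and 1671 and 2090 with DESeq2, so the excess of negative differences varied with the method. Line and culture state cannot be told apart in the test. The change in each line comes from its own fit and the difference from the joint fit. EGFR and ERK genes were called in 20 of 28 cases. EREG had -3.86 in HT-29 and 1.26 in Caco-2 (difference -5.22, SE 0.161, edgeR FDR 3.78e-23). AREG had -3.11 and 1.52 (difference -4.74, SE 0.146, edgeR FDR 3.78e-23), DUSP6 -2.56 and 2.42 (difference -5.08, SE 0.124, edgeR FDR 1.8e-25), EGR1 -3.70 and 1.54 (difference -5.35, SE 0.157, edgeR FDR 1.39e-23). CCND1 (-2.52 and 1.23) and MYC (-1.87 and 1.23) likewise were called lower in HT-29 and higher in Caco-2. FOSL1 was higher in both, with 2.73 and 5.15.

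In the proteasome list the difference between the lines was called for 22 of 39 genes. PSMC4 had 3.21 in HT-29 and 1.79 in Caco-2 (difference 1.32, SE 0.0859, edgeR FDR 1.08e-14). In the NRF2 list 25 of 34 genes differed, and SQSTM1 had 4.92 and 2.40 (difference 2.41, SE 0.0941, edgeR FDR 1.18e-20). Cholesterol genes differed in 20 of 29 cases, with HMGCS1 at 4.21 and 0.82 (difference 3.29, SE 0.115, edgeR FDR 6.58e-22), and mitosis genes in 18 of 30, with CENPA at -2.42 and -0.43 (difference -2.09, SE 0.209, edgeR FDR 2.81e-10). MT2A rose more in Caco-2, at 4.50 and 6.88 (difference -2.49, SE 0.184, edgeR FDR 2.4e-13), while for MT1X, at 6.07 and 6.505, the difference was not called (difference -0.54, SE 0.309, edgeR FDR 0.147). Glycolysis differed in 3 of 23 genes and the HIF target list in 19 of 37, where BNIP3 had 0.51 in HT-29 and 3.58 in Caco-2.

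**Figure D5:**
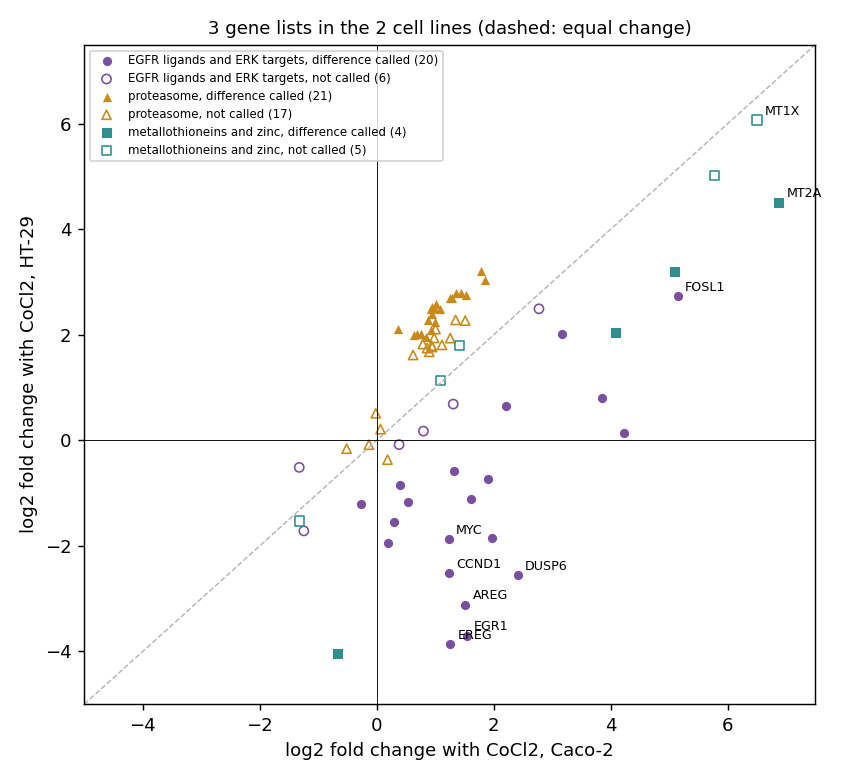
Log2 fold change with CoCl2 in Caco-2 (x axis) and in HT-29 (y axis) for members of 3 gene lists tested in both lines, filled where the difference between the lines was called, with equal change on the dashed line. The proteasome genes other than PSMB8 lie above that line, MT2A below it, and EREG, AREG, DUSP6, EGR1, CCND1 and MYC are lower in HT-29 and higher in Caco-2.

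The study's core list names genes that responded in each of its Caco-2 experiments, some of which are in this series, and none of it was chosen on HT-29. Of its 115 higher genes 108 were tested in HT-29, and 78 were called higher and 3 lower (median 2.096). Of its 69 lower genes 46 were tested, and 42 were called lower and 0 higher (median -2.55, -2.42 where genes at the floor take their bound). These counts stand against 17.4% and 23.9% of all genes.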

How the data were processed

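RNA-seq of HT-29 was compared between 3 CoCl2 and 3 control libraries, grouped by their labels. The deposited table holds raw read counts per gene for every mRNA library, made by the authors. The submitters' processing notes name FastQC 0.11.9, cutadapt 2.10, STAR 2.7.5b, Bowtie 1.1.1, edgeR 3.30.3 and GRCh38.p13, and the kit was stranded, while the counting tool and its strand setting are not given in the sources used here. A second deposited table holds log2 values, log2(RPKM + 1) after TMM within each line by the authors, and served only as an alternative. miRNA tables were not used.

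Counts of the 9 HT-29 mRNA libraries were filtered by filterByExpr, scaled by TMM and fitted with the edgeR 4.0.16 quasi-likelihood test (R 4.3.3), with Benjamini-Hochberg adjustment over all 15812 genes tested. A gene was called at an FDR under 0.05 and an absolute log2 fold change over 1. The difference between lines was an interaction over 18 libraries. The SE is the absolute log2 fold change over the square root of F. The totals of 12925719 to 22332639 counts set the precision of each library. Genes named were the 10 highest and 10 lowest called at a mean of at least 100 counts without overlap between groups, the 10 largest gains and losses in CPM, the 5 highest and 5 lowest lncRNAs at a mean of at least 50 counts, and members of the gene lists, up to 6 of each in full. UBB, NFE2L1 and some members given in full beyond this rule were chosen after their values were seen, and some genes that meet it are not reported here. The members and lists were chosen with earlier results of these data known. The procedure was run on simulated data in which few genes changed, equally in both directions. Such data lack the broad shift seen here and so do not test the scaling. Alternatives used library size, RLE, TMMwsp, DESeq2 1.42.0, limma 3.58.1, other filters, left-out libraries and a replicate block. Gene positions are from GENCODE on GRCh38 and promoters from RefSeq on GRCh38.p14.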

Additional observations from a re-analysis of the deposited data

Results flagged for a closer look

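The responses of HT-29 and Caco-2 to CoCl2 differed by the edgeR interaction test in 3875 genes. Of these, 96 were called in opposite directions in the lines, 60 lower and 36 higher in HT-29. Among the named genes 7 were called lower in HT-29 and higher in Caco-2, and the HT-29 less Caco-2 difference in log2 fold change was -5.22 for EREG, -4.74 for AREG, -5.08 for DUSP6, -3.86 for CCND1, -3.21 for MYC, -5.35 for EGR1 and -2.84 for NEAT1. Caco-2 had been differentiated for 21 days, so that line and culture state cannot be told apart.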

How the results depend on the processing

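The 6524 genes called in HT-29, of 15812 tested, became 13097 of the same 15812 without the fold limit. They became 3911 of 11436 tested at a mean of at least 50 counts and 2520 of 12431 with limma on the deposited log2 values. The split of 2749 higher and 3775 lower became 1347 and 1173 with limma, 6428 and 6669 without the fold limit, and 1295 and 6250 with library size only. The count was 7545 with library size only, 6442 with DESeq2, 4983 with a test against the fold limit and 6594 to 6805 with 1 library left out. Same-numbered CoCl2 and control libraries correlated at 0.014, 0.017 and -0.029 in their deviations, under the limit of 0.1 used for pairing. No pairing by number was thus detected, though one that touches few genes could be missed, and the replicate block called 6520. Against OD, 4734 genes were called, 4726 with the replicate block and 4717 to 4907 with 1 library left out. Between lines 3875 were called, 4324 with library size only, 3761 with DESeq2, 3845 with the replicate block and 3706 to 3792 with 1 HT-29 library left out, and no Caco-2 library was left out. With library size only the median turned to -0.18 for glycogen, -0.41 for the citric acid cycle, -0.34 for the nuclear respiratory chain, -0.088 for the integrated stress response, -0.10 for fatty acids, -0.39 for p53 targets, -0.15 for integrins, -0.14 for acid handling, -0.57 for the mitochondrial ribosome, -0.53 for aminoacyl-tRNA synthetases, -0.15 for drug metabolism, -0.13 for the clock and -0.48 for oxidant enzymes, and BNIP3 turned to -0.12 and HSPD1 to -0.20. The mitochondrial ribosome also turned to -0.034 at a mean of at least 50 counts and to -0.028 with limma. The other 27 of 40 list medians shifted with library size only but kept their sign. The number of called genes changed by more than 1.5-fold in 13 of 40 lists with library size only. It did so in 12 lists with limma and in 25 without the fold limit. Of 132 genes checked 118 kept direction and call under each alternative that gave them a value, and not every gene had a value with limma or at a mean of at least 50 counts. The 132 leave out some genes named above, MT-CO1 and MT-ND1 among them, so this share does not cover every gene reported. Library size only moved the all-gene median by -0.63, so unchecked genes near the fold limit may gain or lose a call with it. Of higher genes 60.6% held ACGTG or GCGTG, against 62.3% of all tested genes, and of those over 8-fold higher 53.6% did. ACGTG alone is a part of that motif and so had to be rarer, with 28.3% against 26.5%. A different motif, TGACNNNGC of the antioxidant response, was in 19.9% of higher genes, against 15.3%. This motif and the 8-fold limit were chosen after seeing the data. The cause of the shifts between alternatives was not tested. Low counts limit the genes near the floor of 3 counts per library.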
